A study of Mus musculus with 4 samples.

Results

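The p53 pathway was followed here through 10 genes, *Trp53* itself, its inhibitors *Mdm2* and *Mdm4*, and 7 genes that p53 switches on (*Ccng1*, *Gadd45a*, *Btg2*, *Sesn1*, *Sesn2*, *Trp53inp1* and *Zmat3*). The members were all non-control probes that the array's design gives 1 of these 10 gene names, which were 23 of 41174 probes, and 22 of the 23 could be tested among 22007 tested probes. The 10 genes were measured in LSK cells, the bone marrow fraction that lacks lineage markers, carries Sca-1 and c-Kit, and holds hematopoietic stem cells and early progenitors (KSL in the labels). Meis1-deficient cells (Meis1-KO, 2 arrays) came from *Mx1-Cre* positive *Meis1* fl/fl mice and control cells (Meis1-WT, 2 arrays) from *Mx1-Cre* negative *Meis1* fl/fl mice, so both genotypes carried the floxed alleles. All mice were on the C57BL/6J background and 4 to 8 weeks old at treatment. Meis1-deficient mice received 4 injections of poly(I:C) at 1.5 ug per g, which induces interferon and through it the *Mx1* promoter that drives Cre. The sample labels give the same injections for the control mice, whereas the series' design text calls the controls sham-treated. Each array held RNA pooled from several mice, and the *Mx1* promoter is active in many interferon-responsive cells, so that deletion was not limited to LSK cells.

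p53 is a transcription factor that is held at a low level by Mdm2, the ubiquitin ligase that marks it for degradation, and by Mdm4, which binds and restrains its activation domain. Stress or DNA damage loosens both, and p53 then raises genes that halt the cell cycle, repair DNA, limit growth or cause cell death, among them *Mdm2*, which closes a feedback loop. In hematopoietic stem cells p53 is known as a regulator of quiescence. The p53 protein is controlled largely after translation, so its RNA is a poor measure of its activity and the RNA of its targets is the usual readout.

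Replicate 1 of both genotypes was hybridized on slide 1 and replicate 2 on slide 2. The second Meis1-deficient array was the dimmest, with 49.2% of its spots well above background against 54.7% to 57.4% on the other arrays, and it correlated with them at 0.891 to 0.916 across probes, against 0.956 to 0.967 among the others. *Meis1* itself, the deleted gene, was lower on both slides at both of its probes, with log2 differences of -0.997 (A_52_P670612) and -1.70 (A_52_P26195), although neither met the study's criteria and the second did so only once the slide was a block (adjusted p = 0.498 by limma). That second probe was not well above background on the dim array. The position of these probes relative to the deleted exon was not analysed here. All 8 markers of LSK cells on the list were tested, and 0 met the criteria, where 0.736% of all tested probes did, with 1 of the 8 in the same direction on both slides. Values below are log2 of the processed signal relative to each array's 75th percentile, so that a difference of 1 is 2-fold. Levels of different probes cannot be set against each other, and each probe is compared only with itself.

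The promoter windows of the members are shown first. RefSeq windows of GRCm38.p6, from 250 bases before to 50 bases after a gene's start, were given for 8 of the 10 genes (10 windows). They were searched for a decamer that is only a part of the full p53 consensus. It reads the same on both strands, so that 1 search covers both. A match to the decamer alone is not a full p53 element, and sequence outside the windows was not searched. The decamer was found in 5 of the 10 windows, against 8.36% of all 32851 windows. The stretch around each match is printed 5′ to 3′ on the gene's strand, with the decamer in capitals.

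*Trp53* (chr11:69580269-69580308, plus strand): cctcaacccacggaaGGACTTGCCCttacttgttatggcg
*Mdm2* (chr10:117710920-117710959, minus strand): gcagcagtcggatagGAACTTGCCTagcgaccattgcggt
*Ccng1* (chr11:40755447-40755486, minus strand): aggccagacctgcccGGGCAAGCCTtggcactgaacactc
*Sesn1*, the second of 2 windows (chr10:41887251-41887290, plus strand): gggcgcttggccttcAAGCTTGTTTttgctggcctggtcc
*Gadd45a* (chr6:67037423-67037462, minus strand): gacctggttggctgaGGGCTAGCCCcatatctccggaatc

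The decamer began 75 bases before the start of *Trp53*, 186 before *Mdm2*, 185 before *Ccng1*, 173 before the second start of *Sesn1* and 40 before *Gadd45a*. No match was found in the windows of *Btg2*, *Sesn2* and *Mdm4* or in the first window of *Sesn1*, which says only that these letters are not in those windows. Of the 48 windows of a further list of p53 targets, 22.9% held the decamer, and of the 11 windows of paralogs of the members 0 did. Nothing in the array data measures binding of p53 to these stretches.

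None of the p53 pathway genes differed between the genotypes by the study's criteria, which ask for a change above 2-fold with an unadjusted p below 0.01. Of the 22 member probes 0 met them, where 0.736% of all tested probes did (0.6% lower and 0.136% higher). At the brightest probe of each gene, 6 members were lower and 4 higher without Meis1, with log2 fold changes from -0.57 (*Zmat3*) to 0.54 (*Sesn1*). Their median was -0.082, beside 0.082 over all tested probes, and it was 0.091 without the first and -0.24 without the second control array. Over all their probes 13 of 22 were lower, where 43.7% of all tested probes were. Adjusted p-values by limma were 0.983 to 0.998 for the 22 probes, but they say little by themselves, since 0 of the 22007 probes had an adjusted p under 0.05 (618 had an unadjusted p under 0.05). Of the 22 member probes 0 had an unadjusted p under 0.05 by limma, where 2.81% of all tested probes did, and 0 were called by the methods' t-test, where 0.136% were. With the slide as a block 0 of the 22 met the criteria, where 1.99% of all tested probes did, and 1, a second probe of *Sesn2*, had an unadjusted p under 0.05, where 6.07% did. No member had an adjusted p under 0.05 in that fit (the lowest was 0.823 by limma), where 0.227% of all tested probes did. In RNA pooled from a sorted population, fewer cells with a transcript and less of it per cell cannot be told apart.

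**Figure D1:**
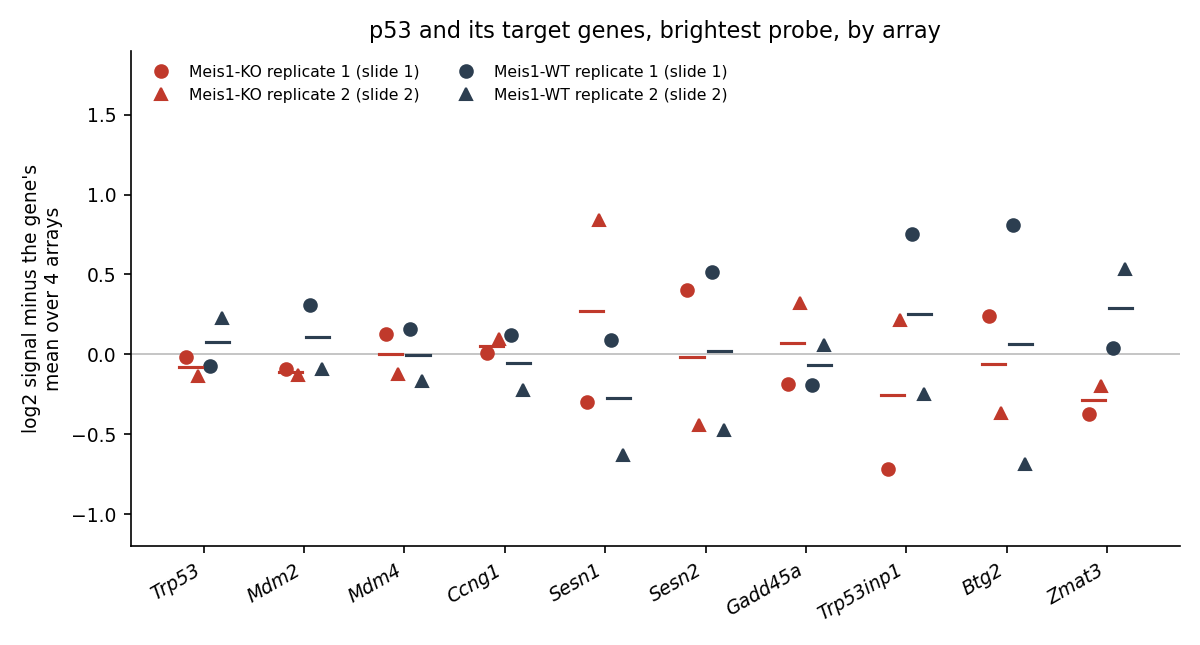
The log2 signal of the brightest probe of each of the 10 genes on each array (y axis, after subtracting the gene's mean over the 4 arrays), with circles for slide 1, triangles for slide 2 and bars for the mean of 2 arrays per genotype. The red Meis1-KO and dark Meis1-WT points separate for *Mdm2*, where the margin is small, and for *Zmat3*, and interleave for the other 8 genes.

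What the arrays could have shown is set by the intervals. The standard errors of the 22 log2 fold changes ran from 0.42 to 0.66. The 95% interval excluded a 4-fold change in both directions for 19 of the 22 probes, among them all 10 brightest ones, and it excluded a 2-fold change in both directions for 0. A 2-fold rise lay outside the interval at 8 probes, which were all probes of *Trp53*, *Mdm2* and *Trp53inp1*, the *Zmat3* probe and 1 of *Btg2*. A 2-fold fall lay outside it at 7, which were both *Ccng1* probes, the *Gadd45a* probe, 2 of *Sesn1* and 1 each of *Sesn2* and *Mdm4*. With 2 arrays a side, the smallest two-sided p that exact permutation allows is 0.333.

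*Trp53* was covered by 2 probes. The brighter one (A_52_P491849, chromosome 11, 69403134 to 69403193 on mm9) is printed on 10 spots of each array and has the sequence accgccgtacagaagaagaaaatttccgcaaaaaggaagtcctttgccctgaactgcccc. It read 2.08 and 1.96 in the Meis1-deficient pools and 2.03 and 2.33 in the control pools. Only the second control array stood apart, at the high end, and the groups overlapped. The mean was 2.02 ± 0.085 (SD, n = 2) without Meis1 and 2.18 ± 0.21 (SD, n = 2) with it, a log2 fold change of -0.15 (95% interval -1.19 to 0.89), or 1.11-fold lower. The other probe (A_52_P781398) read 1.42 and 1.24 against 1.17 and 1.71, a log2 fold change of -0.11. Both *Trp53* probes were higher in Meis1-deficient cells on slide 1 (differences of 0.057 and 0.25) and lower on slide 2 (-0.37 and -0.47).

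*Mdm2*, the ligase and feedback target, also had a probe on 10 spots (A_51_P201346, chromosome 10, 117129725 to 117129784 on mm9), with the sequence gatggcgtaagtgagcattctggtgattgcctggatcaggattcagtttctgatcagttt. It read 0.69 and 0.65 in Meis1-deficient and 1.09 and 0.69 in control LSK cells. The first control array was high and the other 3 lay within 0.042 of each other, so that the groups did not overlap although the first Meis1-deficient and the second control array read alike. The log2 fold change was -0.22 (95% interval -1.27 to 0.83), with -0.40 on slide 1 and -0.042 on slide 2. The other *Mdm2* probe (A_52_P469842) overlapped between the groups, with a log2 fold change of -0.17, and turned from -0.48 on slide 1 to 0.14 on slide 2.

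The replicate spots of these probes show how much of this is the spot. On 1 array the 10 *Trp53* spots varied by 2.48% to 3.69% (coefficient of variation) and the 10 *Mdm2* spots by 4.35% to 5.59%, which is an SD of 0.036 to 0.052 and 0.062 to 0.081 on the log2 scale. The SD between the 2 control arrays was 0.21 for *Trp53* and 0.28 for *Mdm2*, and between the 2 Meis1-deficient arrays 0.085 and 0.029. An array's value is the mean of its 10 spots, with a standard error of 0.011 to 0.017 for *Trp53* and 0.020 to 0.026 for *Mdm2* on the log2 scale, so that only the Meis1-deficient arrays of *Mdm2* lay about as close together as the spots allow. Spots measure the array and not the mice, so they are not replicates of a genotype.

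**Figure D2:**
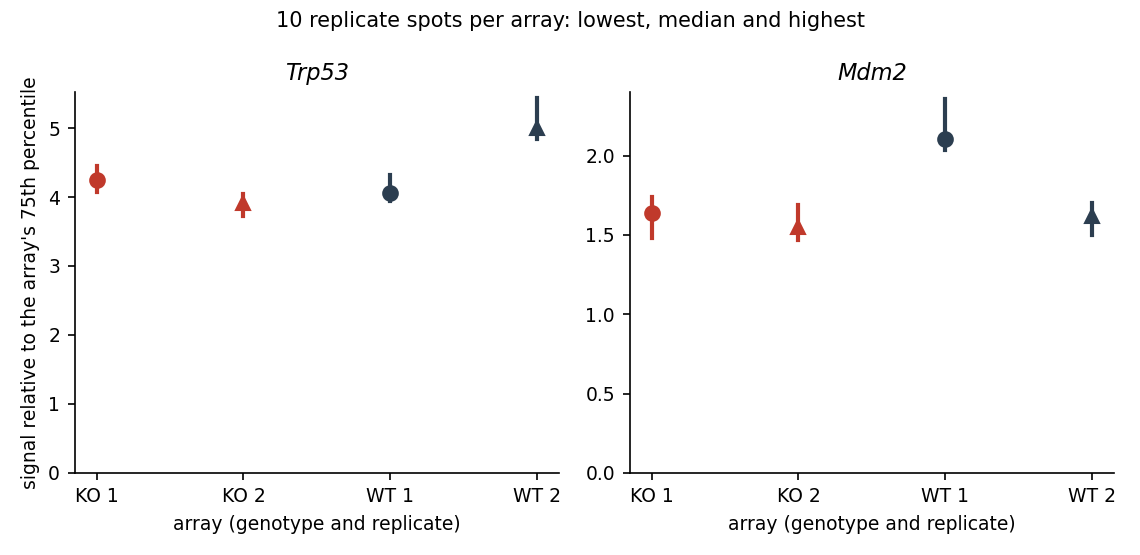
Signal relative to the array's 75th percentile (y axis, from 0) at the 10 replicate spots of the *Trp53* and *Mdm2* probes on each array, with the median as a symbol and a line from the lowest to the highest spot. The second control array is above the others for *Trp53* (4.84 to 5.44, against a highest spot of 4.45 on the first Meis1-deficient array), and the first control array is above the others for *Mdm2* (2.04 to 2.36, against at most 1.74 elsewhere).

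*Mdm4* encodes the second inhibitor and had 4 tested probes, the most of any member. Its log2 fold changes were the closest to 0 among the 10 genes at the brightest probe (A_52_P596201), which read 1.93 and 1.68 in Meis1-deficient and 1.96 and 1.63 in control cells. Both genotypes had a higher array on slide 1 and a lower one on slide 2, and the difference of the means was 0.0085 (95% interval -1.05 to 1.06). The accession of this probe is a cDNA clone that the gene table does not list, whereas those of the other 3 are listed as *Mdm4*. The other 3 probes differed by 0.17 (A_51_P176954), 0.0082 (A_52_P174937) and -0.054 (A_52_P485905). None of the 4 had groups that stood apart.

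*Ccng1* encodes cyclin G1, a p53 target that acts back on the p53-Mdm2 loop. Its brighter probe (A_51_P161612) read 3.87 and 3.96 in Meis1-deficient and 3.99 and 3.64 in control LSK cells. The second control array was the low one and the other 3 lay close together, and the log2 fold change was 0.10 (95% interval -0.94 to 1.15). The other probe (A_52_P612803) read 1.79 and 1.84 against 1.64 and 1.50, with both Meis1-deficient arrays above both controls. That difference of 0.25 (standard error 0.42) was in the same direction on both slides and did not pass the test (adjusted p = 0.983 by limma).

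*Gadd45a*, a growth arrest and DNA repair gene, had 1 probe (A_51_P296608). It read 1.37 and 1.87 in Meis1-deficient and 1.35 and 1.61 in control LSK cells. Slide 2 was higher in both genotypes, and the log2 fold change was 0.14 (95% interval -0.95 to 1.22). Within the slides the differences were 0.011 and 0.26.

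*Btg2*, an antiproliferative gene that is also switched on by mitogens and handling as an immediate early gene, had 3 probes and a wide spread within each genotype. The brightest (A_52_P31543) read 2.33 and 1.73 in Meis1-deficient and 2.90 and 1.41 in control LSK cells. Both control values lay outside the range of the Meis1-deficient ones, 1 above and 1 below, so that the direction was set by the slide, with -0.57 on slide 1 and 0.32 on slide 2. The log2 fold change was -0.13 (95% interval -1.63 to 1.38), and it was -0.015 at A_52_P35217 and -0.35 at A_52_P925197. On the list of immediate early and handling genes, 7 of the 12 tested genes were lower and 5 higher, with a median of -0.22 and a summed relative signal of 981 and 585 in Meis1-deficient against 1041 and 637 in control cells. None of the 12 met the criteria, and *Hspa1a*, a heat shock gene, did once the slide was a block (log2 fold change -3.54, adjusted p = 0.0416 by limma, well above background on 3 of 4 arrays). The part of handling in the *Btg2* values was not tested.

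The sestrins are stress-induced proteins that restrain mTORC1 signaling, and their probes disagreed the most. *Sesn1* read 3.30 and 4.44 in Meis1-deficient and 3.69 and 2.97 in control LSK cells at its brightest probe (A_51_P233954). The second Meis1-deficient array was the highest and the second control array the lowest, and the others lay between them. The log2 fold change of 0.54 (95% interval -0.84 to 1.92) combined -0.39 on slide 1 with 1.47 on slide 2. The probe A_51_P266644 turned in the same way between the slides (-0.43 and 1.75, log2 fold change 0.66), but was lowest on the first Meis1-deficient array. The positions that the array's annotation gives for this probe's ends (chromosome 10, 41618206 and 41622368 on mm9) are further apart than the probe is long. The third probe (A_52_P53596) went from -0.91 on slide 1 to 0.49 on slide 2, with a log2 fold change of -0.21.

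*Sesn2* differed by less than the spread at its brighter probe (A_51_P161354), which read -0.33 and -1.17 in Meis1-deficient and -0.22 and -1.21 in control LSK cells. The values paired by slide, with high arrays on slide 1 and low arrays on slide 2, and the log2 fold change was -0.038 (95% interval -1.39 to 1.32). The dimmer probe (A_52_P154710, chromosome 4, 132047974 to 132048033 on mm9) read -1.39 and -0.18 in Meis1-deficient and -1.70 and -2.35 in control cells. Here both Meis1-deficient arrays were above both controls, and the log2 fold change of 1.24 (standard error 0.57, 95% interval -0.14 to 2.63) was the largest of the 22 and the only one over 2-fold, where 10.2% of all tested probes were. It did not meet the criteria (adjusted p = 0.983 by limma, or 0.823 once the slide was a block). Without the first Meis1-deficient array it was 1.84 and met them (adjusted p = 0.0899 by limma), in a fit where 10.1% of all tested probes did. That fit has 1 Meis1-deficient array, the dim one, and takes the spread from the controls. The difference was 0.32 on slide 1 and 2.17 on slide 2. Its accession is a cDNA clone that the gene table does not list, whereas that of the brighter probe is listed as *Sesn2*.

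*Trp53inp1*, which encodes a nuclear protein that assists p53 in stress, was among the most variable members. At A_51_P175580 it read 2.88 and 3.81 in Meis1-deficient and 4.35 and 3.35 in control LSK cells. The first Meis1-deficient array was the lowest and the first control array the highest, on the same slide, while on slide 2 the order was the other way round. The log2 fold change of -0.50 (95% interval -1.89 to 0.88) was thus made of -1.47 on slide 1 and 0.46 on slide 2. The second probe (A_52_P503387) read 2.12 and 1.75 against 3.40 and 1.83, a log2 fold change of -0.68, with -1.28 on slide 1 and -0.085 on slide 2. That probe is a tandem repeat of a 26-base unit, AGTACTAATACTTACCACAGCAGGCG (the capitals mark the unit), and 97.1% of its bases match the base 1 unit further on. Only 25 of the 41174 probes repeat in this way at 90% or more of their bases.

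*Zmat3* encodes a zinc finger protein that binds RNA. Its brightest probe was the most negative of the 10 as scaled here, with differences of -0.42 on slide 1 and -0.73 on slide 2 (A_51_P415220, chromosome 3, 32233831 to 32233890 on mm9). *Trp53inp1* was more negative with quantile normalization or normexp (-0.71 and -0.68, against -0.54 and -0.12 for *Zmat3*). It was also more negative without the second Meis1-deficient or the second control array (-0.97 and -1.004, against -0.66 and -0.33). By the mean of its probes it was at -0.59, against -0.57. The *Zmat3* probe read -1.92 and -1.75 in Meis1-deficient and -1.51 and -1.01 in control LSK cells. The groups did not overlap, and the log2 fold change was -0.57 (standard error 0.44, 95% interval -1.65 to 0.50), or 1.49-fold lower. It did not pass the test (adjusted p = 0.983 by limma). The other *Zmat3* probe (A_52_P33039) was well above background on 0 of 4 arrays and was not tested.

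**Figure D3:**
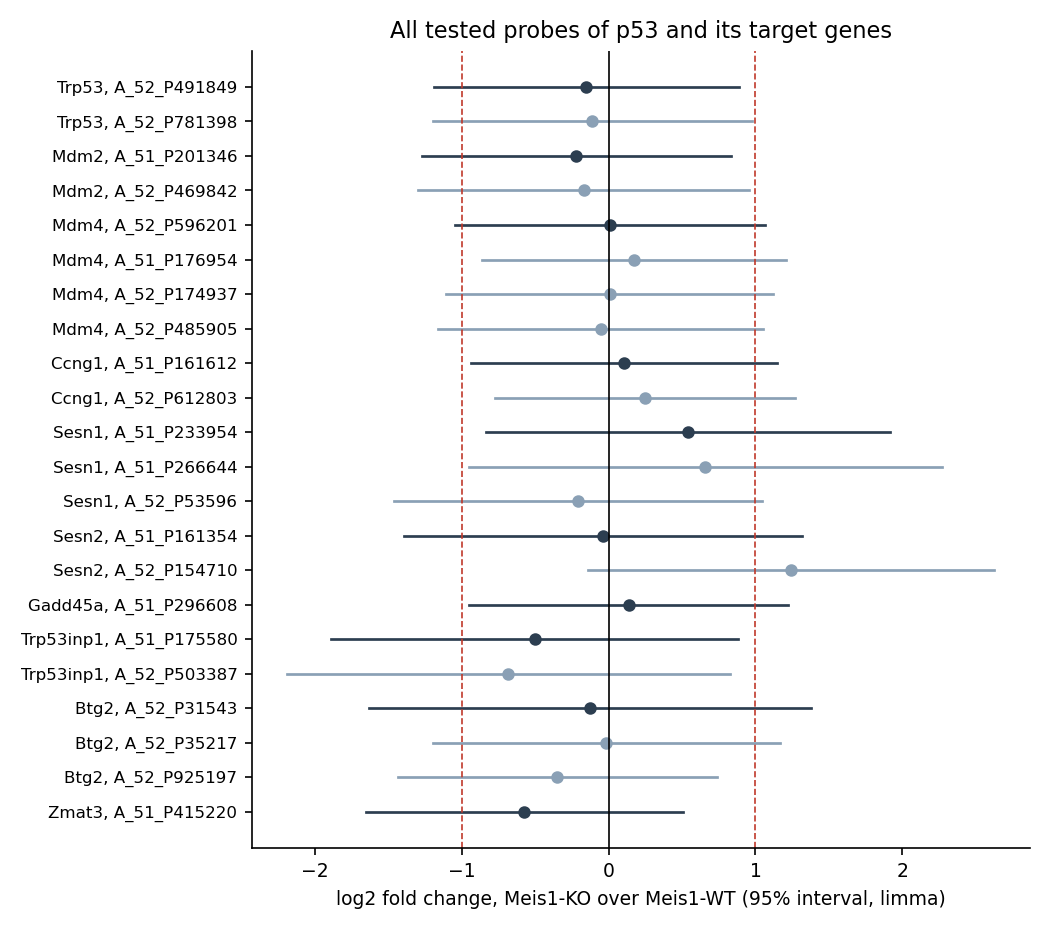
Log2 fold change of Meis1-KO over Meis1-WT (x axis) at each of the 22 tested probes, with its 95% interval by limma, dark for the brightest probe of a gene and light for the others. Dashed lines mark 2-fold. All 22 intervals include 0, and only the second *Sesn2* probe has its point beyond a dashed line.

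Across the members, the groups did not overlap at 4 of 22 probes (*Mdm2* and *Zmat3* lower, a probe of *Ccng1* and a probe of *Sesn2* higher), which is 18.2%, where 26.8% of all tested probes did not overlap. The direction was the same on both slides for 7 of the 22 probes, or 31.8%, where it was for 51.2% of all tested probes. Of the 22, 16 were lower on slide 1, where 46.7% of all tested probes were, and 7 on slide 2, where 44% were. A turn from lower on slide 1 to higher on slide 2 was found at 12 of the 22, where 25.7% of all tested probes had it, and the opposite turn at 3. Probes of 1 gene share their transcript, and at the brightest probes alone 3 of 10 kept their direction (*Mdm2*, *Gadd45a* and *Zmat3*) and 6 of 10 were lower on slide 1 and higher on slide 2. The median difference of these 10 genes was -0.25 on slide 1 and 0.15 on slide 2, beside 0.025 and 0.13 over all tested probes. With 1 array per genotype on each slide, the difference between the slides could not be tested.

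**Figure D4:**
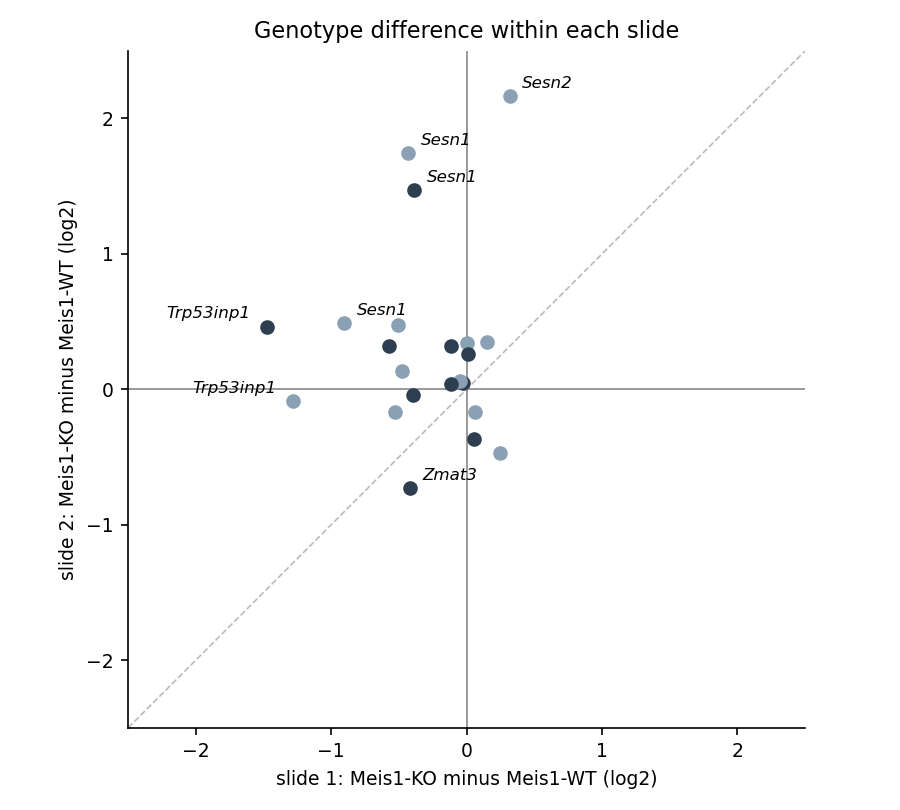
Difference between Meis1-KO and Meis1-WT (log2) on slide 1 (x axis) and slide 2 (y axis) for each of the 22 tested probes, dark for the brightest probe of a gene and light for the others, with a dashed line where both slides are equal. Only 7 probes lie in the lower left or upper right quadrant. The *Sesn1* and *Trp53inp1* probes and the light *Sesn2* point lie farthest from the dashed line, whereas the dark *Sesn2* point lies near it.

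The spread over the 4 arrays differed among the members. Over these arrays, the brightest probes of *Mdm4*, *Ccng1*, *Trp53*, *Mdm2* and *Gadd45a* ranged over 0.33, 0.35, 0.37, 0.44 and 0.51 on the log2 scale. Those of *Zmat3* and *Sesn2* ranged over 0.91 and 0.99, and those of *Sesn1*, *Trp53inp1* and *Btg2* over 1.47, 1.47 and 1.50. Among all tested probes the median range was 1.02, and 16 of the 22 member probes were below it. Of the 5 genes with the largest ranges, *Trp53inp1* and *Zmat3* had no promoter window to search. Ranges were therefore not compared between genes with and without the decamer.

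Some probes of the more variable genes ordered the arrays as the summed signal of a list of marker genes did. Few orders are possible with 4 arrays, and several lists were compared. The share of all tested probes with each order was not counted, so a shared order is only a description. The brightest *Btg2* probe and the brighter *Sesn2* probe were highest on the first control array, then on the first and the second Meis1-deficient array, and lowest on the second control array. The summed signal of the granulocyte and monocyte markers had this same order, with 171 and 124 in Meis1-deficient and 189 and 63.1 in control cells. On that list 7 of 10 tested genes were lower (median -0.22, 0 of 12 markers dim on all arrays), and 1, *Elane*, met the criteria at -1.57. The other 2 *Btg2* probes were also highest on the first control array but then ordered the arrays differently. A_52_P35217 had the order of the LSK markers, which summed to 131.5 and 132.0 in Meis1-deficient and 136.2 and 110.3 in control cells. A_52_P925197 had the order of the immediate early and handling genes. The dimmer *Sesn2* probe had the order of the erythroid markers, which summed to 100.1 and 246 in Meis1-deficient and 88.6 and 24.8 in control cells (4 of 8 tested genes higher, median 0.023), and 1 of its genes, *Rhag*, met the criteria at 1.72. The brighter *Trp53inp1* probe had the order of the B lineage and plasma cell markers, with the first control array highest and the first Meis1-deficient array lowest, where they summed to 16.7 and 34.3 against 44.8 and 20.7 (7 of 7 tested genes lower, 0 past the criteria, median -0.62). The other *Trp53inp1* probe had instead the order of the immediate early and handling genes. The brightest *Sesn1* probe, which varied as widely, had the order of none of the lists compared so far. The other 2 *Sesn1* probes had the order of the T and NK cell markers, which summed to 4.56 and 8.63 against 5.53 and 4.77 (3 of 4 tested genes lower, 0 past the criteria, median -0.73, with *Cd3e* and *Cd3g* not well above background on any array). Of the B lineage and plasma cell markers, *Pax5* and *Igll1* were not well above background on any array. The sort for LSK cells gates out cells by the study's panel of lineage markers, which names none specific to NK or plasma cells. The part of other cells in the values of *Btg2*, *Sesn1*, *Sesn2* and *Trp53inp1* was not tested.

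A longer list of 43 other p53 targets, of which 35 were tested, had 0 genes past the criteria, a count that a share of 0.736% over all tested probes would also give. At the brightest probe 15 were lower and 20 higher, with a median of 0.039. The largest falls were *Thbs1* (thrombospondin 1, an inhibitor of angiogenesis) at -2.51, *Epha2* (an ephrin receptor) at -1.38 and *Fas* (a death receptor) at -1.11, and the largest rises *Rrm2b* (a subunit of ribonucleotide reductase used in DNA repair) at 0.60, *Rps27l* (a ribosomal protein) at 0.76 and *Eda2r* (a receptor of the TNF receptor family) at 0.85. None of the 6 passed the test by limma. *Epha2* was not well above background on the second Meis1-deficient array nor *Eda2r* on the first control array, so their sizes rest in part on signal near background. *Thbs1* met them once the slide was a block (adjusted p = 0.471 by limma), was well above background on 1 of 2 Meis1-deficient arrays, and read -3.49 and -5.21 against -2.87 and -0.81. *Cdkn1a*, the cell cycle inhibitor p21 and the best known p53 target, was named after its values were seen. It read 1.89 and 0.12 in Meis1-deficient and 3.12 and 0.95 in control LSK cells, lower on both slides (by -1.23 and -0.83 on the log2 scale), with a log2 fold change of -1.03 (95% interval -3.21 to 1.16, adjusted p = 0.983 by limma). The death genes *Bax*, *Bbc3* and *Pmaip1*, chosen in the same way, had log2 fold changes of 0.039, -0.39 and -0.45.

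Of 24 regulators and cofactors of p53, 23 were tested and 0 met the criteria (0.736% of all tested probes did), with 11 lower, 12 higher and a median of 0.0065. The largest falls were at the coactivators *Crebbp* (-2.40) and *Ep300* (-1.71) and the kinase *Hipk2* (-1.003). *Crebbp* differed by 0.10 on slide 1 and -4.90 on slide 2, which holds the dim second Meis1-deficient array, and its probe's accession is a clone that the gene table does not list. The other *Crebbp* probes differed by -0.39 and 0.40. *Ep300* was not well above background on that array, so that its value is not a measured size, and its other tested probes differed by 0.16 and -0.45. The 3 *Hipk2* probes were all lower (-1.003, -0.96 and -0.56). The largest rises were the damage kinase *Atr* (0.70), the deubiquitinase *Usp7* (0.85) and *Trp53rk* (1.10), whose accession the gene table gives as *Trp53rkb*. The other probes of *Atr* differed by 0.42 and -0.63, and that of *Usp7* by 0.011. *Cdkn2a*, which encodes the Mdm2 inhibitor p19Arf, was not well above background on any array. Among 13 paralogs of the members 10 were tested and 0 met the criteria, which is read against the same share (6 lower, 4 higher, median -0.060), with the largest falls at *Gadd45b* (-0.83), *Gadd45g* (-0.70) and *Btg3* (-0.36) and the largest rises at *Zmat2* (0.32), *Ccng2* (0.38) and *Zmat1* (0.57).

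**Figure D5:**
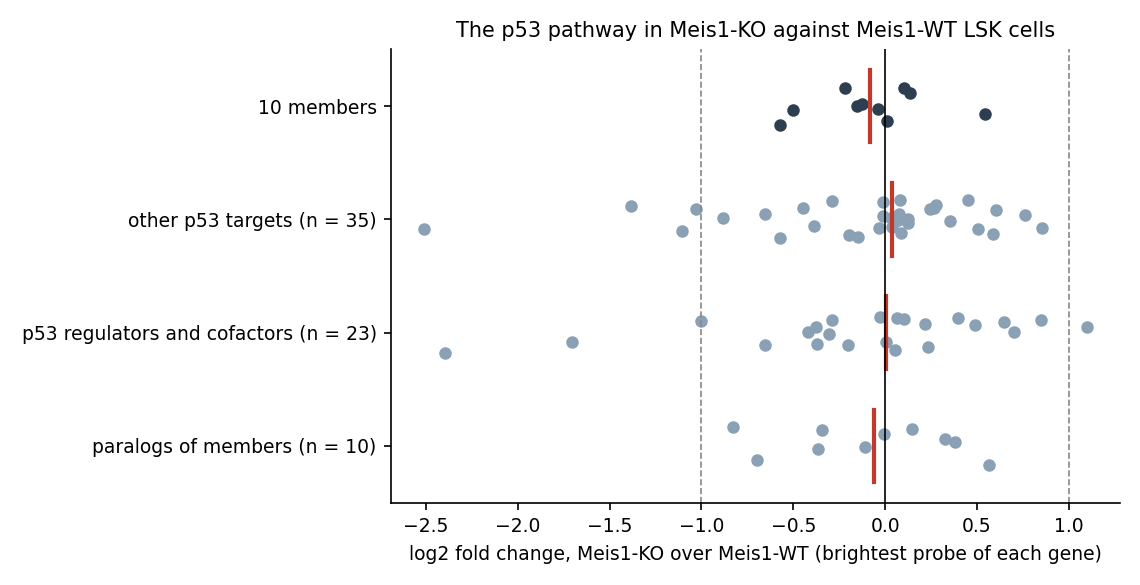
Log2 fold change of Meis1-KO over Meis1-WT (x axis) at the brightest probe of each tested gene in the 10 members and 3 further lists of the p53 pathway, with a red bar at each list's median and dashed lines at 2-fold. All 4 medians lie between -0.082 and 0.039, and the 10 members lie between -0.57 and 0.54, inside the dashed lines.

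Likeness to *Trp53* over the 4 arrays was measured among the other 77 genes of the members and the 3 lists as the root mean square difference of log2 values, each gene being centered on its own mean. The 3 most like it were the p53 targets *Sfn* (0.095), *Aen* (0.12) and *Pml* (0.12). With 4 arrays and genes that vary little, this is a description. Genes of S phase and of G2 and M, which a p53 response would be read beside, were higher at 16 of 18 tested genes. Over all tested probes 43.7% were lower. The median of the 18 was 0.36, beside 0.082 over all tested probes. On slide 1 it was 0.23 and on slide 2 0.64, beside 0.025 and 0.13. Of the 18 genes 0 met the criteria, where 0.736% of all tested probes did. These genes summed to 750 and 1264 in Meis1-deficient and 710 and 769 in control cells, and their part in the values of the members was not tested. Interferon-stimulated genes, which poly(I:C) raises, were lower at 5 and higher at 5 of 10 tested genes, with a median of -0.031.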

How the data were processed

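RNA of LSK cells was profiled on 4 one-color 60-mer arrays, from 10 ng of RNA each. The authors deposited intensities from Feature Extraction 9.5.3.1 (file headers; 9.1 by the labels), with background subtracted and trends removed within but not between arrays, and a table of the series with the same intensities rounded. Outlier spots (54 to 97 per array) were dropped, spots of a probe averaged, and log2 values centered on each array's 75th percentile. Probes that both arrays of a genotype had well above background, with a value on all 4, were fitted with limma 3.58.1 in R 4.3.3 (lmFit, eBayes, genotype as the term), with Benjamini-Hochberg adjustment over 22007 probes. Criteria were a change above 2-fold with an unadjusted p below 0.01. Each sample was a pool, and p-values measure the spread between pools. A replicate number marks a shared slide per the files, and same-numbered arrays deviated together (correlation 0.266), so a fit with the slide as a block is given for the members and where it changes a call of a gene named here. The number of arrays limits the precision.

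The members, lists and tests were chosen with earlier results of these data known. All members and probes were named. From the lists of other targets, regulators and paralogs, genes past the criteria in either fit and the 3 largest rises and falls at the brightest probe were named. *Elane*, *Rhag* and *Hspa1a* were named after their values were seen. Positions are those of the array's annotation on mm9, and exons were not analysed here. Of 23 member accessions 20 were in the GRCm38.p6 gene table, each under the same symbol. The fit was tested on simulated data. Alternatives were median, quantile and no scaling, normexp (offset 50), the authors' table, an intensity trend in limma, the methods' t-test, 2 filters on dim probes, keeping outlier spots, the slide block, the mean of all probes of a gene, and each array left out.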

Additional observations from a re-analysis of the deposited data

How the results depend on the processing

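No alternative moved a member past the criteria except leaving out the first Meis1-deficient array, where the second *Sesn2* probe was called (0 to 1 member probes with an array left out). The slide as a replicate block changed no call of a member, moved the count over all tested probes from 162 to 437, and called 1 other p53 target, *Thbs1*. *Thbs1* was also the 1 called without a filter on dim probes and without the first Meis1-deficient (-3.37) or first control array (-3.54), sizes that rest on signal not well above background on the second Meis1-deficient array, so that 0 to 1 other targets were called with an array left out. Over all tested probes the criteria were met by 49 with normexp correction, 294 without a filter, 53 with a filter on all 4 arrays, 30 by the methods' t-test, 101 with an intensity trend, and 107 (without the first control array) to 2215 (without the first Meis1-deficient array) with an array left out. Where 1 array was left out, the spread comes from the other genotype alone. Without scaling, the members' median was -0.46 and that of all tested probes -0.295. With an array left out, the members' median ranged from -0.24 to 0.091.

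Of 158 alternative values of the brightest probes, 137 kept their direction and 21 did not, and the smallest adjusted p was 0.208. *Trp53*, *Mdm2*, *Trp53inp1* and *Zmat3* were lower under every alternative run at the brightest probe, but with an array left out they came as near to 0 as -0.0026, -0.021, -0.0035 and -0.33 (and as far as -0.31, -0.42, -1.004 and -0.82), and second probes of *Trp53*, *Mdm2* and *Trp53inp1* turned higher (0.16, 0.18 and 0.10). *Zmat3* was nearest to 0 with normexp (-0.12). *Mdm4* turned to -0.089 with quantile normalization, -0.37 without scaling and -0.13 with normexp, *Ccng1* to -0.10, -0.27 and -0.098, and *Gadd45a* to -0.24 without scaling and -0.010 with normexp. *Sesn2* turned to 0.043 with median scaling, 0.020 with quantile normalization, 0.14 with normexp and 0.60 over the mean of its probes. With an array left out, *Mdm4* ranged from -0.16 to 0.17, *Ccng1* from -0.068 to 0.28, *Gadd45a* from -0.12 to 0.39, *Sesn1* from -0.029 to 1.11, *Sesn2* from -0.53 to 0.46 and *Btg2* from -0.87 to 0.62. The cause was not tested.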
